A study of Rattus norvegicus and Heterocephalus glaber with 6 samples.

Results

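Translation initiation factors (eIFs) and elongation factors (eEFs) are the proteins that load ribosomes onto messenger RNA and move them along it. Their genes were taken from the liver tables by name: every row whose symbol begins, in either case, with Eif1 to Eif6 or with Eef1 or Eef2, leaving out the eIF2 kinases (Eif2ak). This gave 56 of the 22549 rows of the rat tables, and 7 of the 734 rows of the naked mole rat tables, which carry 6 symbols. The symbols EIF1, EIF2S2 and EIF5 were present in both species. The name rule also takes in genes that are not translation factors: Eif2c1 to Eif2c4 are older names of the Argonaute genes, which encode the proteins that carry microRNAs, and they are described separately but stay in the counts over all 56 rows unless left out by name.

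The samples were livers of rats (Rattus norvegicus) and of naked mole rats (Heterocephalus glaber), a burrowing rodent that tolerates low oxygen. All 6 libraries, 3 per species, were made from polyadenylated RNA of animals kept in 8% oxygen for 8 hours. The labels used here give no strain, sex or age. Normoxia samples were not used here, so nothing below measures an effect of oxygen. No label says that the libraries of a species came from different animals, so each SD and p-value covers the spread between libraries, part of which may be technical.

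Initiation runs through a series of complexes. eIF2 brings the initiator transfer RNA to the small ribosomal subunit, eIF2B recharges eIF2 with GTP, eIF3 holds the initiation complex together, and eIF4F (the cap-binding eIF4E, the scaffold eIF4G and the helicase eIF4A) recruits the messenger RNA. In elongation, eEF1A delivers aminoacylated transfer RNA, the eEF1B complex recharges eEF1A, and eEF2 moves the ribosome forward by a codon. Cells lower translation under stress, low oxygen included, mainly by phosphorylating eIF2, by freeing the eIF4E-binding proteins (4E-BPs, genes Eif4ebp1 to Eif4ebp3) to sequester eIF4E, and by phosphorylating eEF2. All these switches act on proteins, whereas the values here are transcript levels.

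Levels are FPKM, a fragment number scaled by transcript length and by the size of the library, so levels of different genes can be set side by side. The rat libraries summed to between 527133 and 557187 FPKM. The highest sum, that of rat 3, includes albumin at 25789 FPKM, whose value is missing in rats 1 and 2. Absolute depth is unknown, and from the steps between low values rat 1 had 1.05 times the depth of rat 2 and 0.983 times that of rat 3. All 10 hepatocyte markers with a rat row reached a mean of 10 FPKM, whereas 0 of 7 skeletal muscle or neuron markers reached 1 FPKM. The summed level of the 2 erythroid markers with a rat row, Hbb and Slc4a1, was 55.0 in rat 1, 359 in rat 2 and 349 in rat 3. That of 5 macrophage markers was 97.3, 109 and 135. Of these, Marco was listed at 0, but its row lies off the assembled chromosomes, where no row has a value above 0. In bulk liver, fewer cells of a type and less RNA per cell cannot be told apart.

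In rat liver, translation factor transcripts were abundant as a group. Of the 56 rows, 50 (89.3%) had a mean of at least 1 FPKM over the 3 rats, against 44.3% of all rat rows. A mean of at least 10 FPKM was reached by 38 (67.9%, against 17.3%) and of at least 100 FPKM by 6 (10.7%, against 2.94%). The median of the means was 23.5 FPKM for the 56 rows (24.8 FPKM without the Argonautes) and 0.448 FPKM for all rat rows. Eif2s3y and Eif4e1b were listed at 0 in all 3 rats. These counts describe 1 group of samples, with no test. RefSeq lists at least 1 pseudogene for 32 of the 56 genes, with 20 pseudogenes for Eef1a1 and 16 for Eef1g. Reads from such near-identical copies can be split or shared, so the levels of these genes are uncertain.

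**Figure D1:**
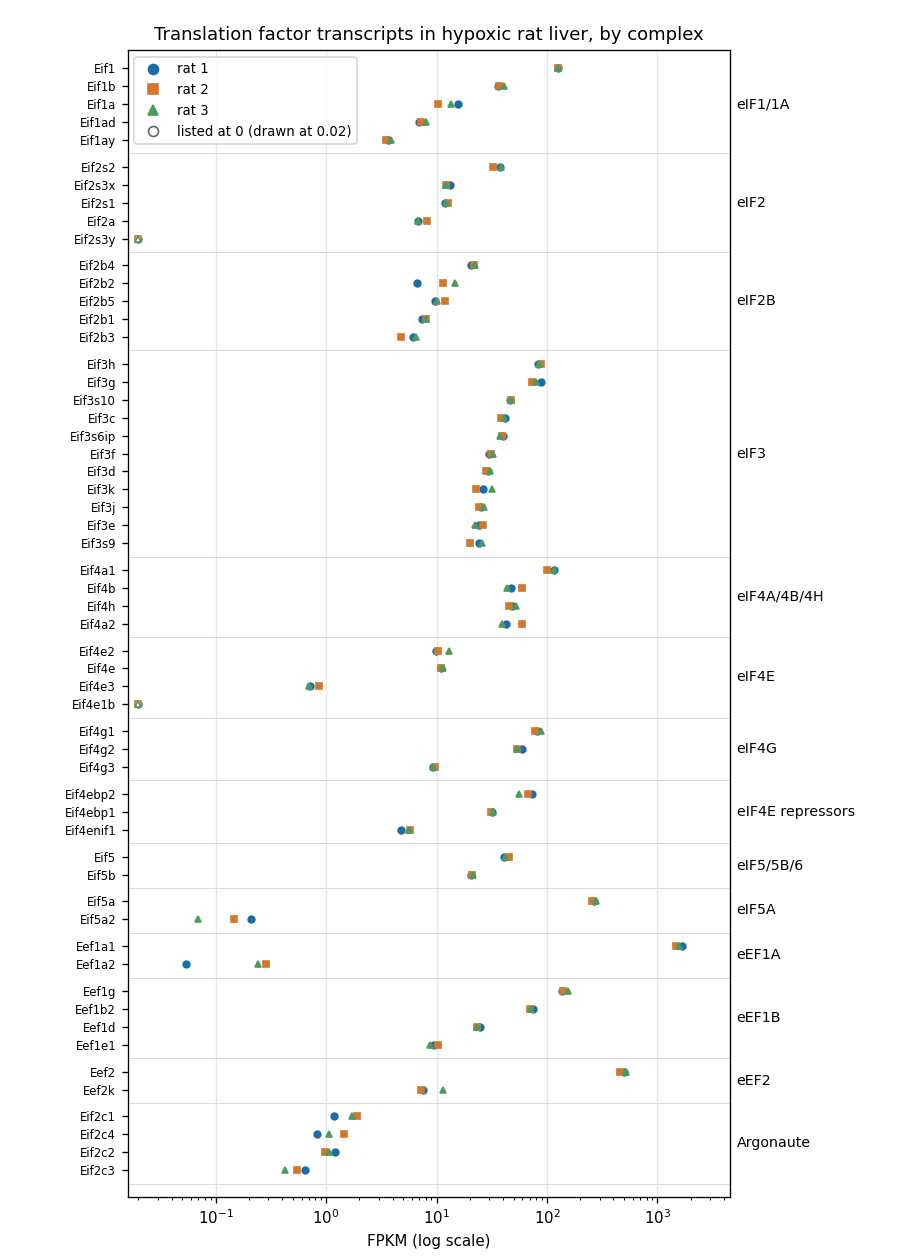
FPKM of the 56 translation factor rows (log axis) in each of the 3 hypoxic rat livers, grouped by complex and ordered by mean within a complex. Points are single libraries, and open symbols mark values listed at 0. Eef1a1 lies at the right end, between 1459 and 1663 FPKM, and the 11 eIF3 rows lie between means of 23.4 and 85.5 FPKM.

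Messages of elongation factors are textbook members of the TOP class, which begin with a run of pyrimidines (C and T in DNA letters) at the cap and are translated under control of the kinase mTOR. The start-site sequences are printed for 3 elongation factors and the eIF3 subunit Eif3f, chosen because their windows hold a run, and for Eef1a2, which has none. They show what a run looks like and are no sample of elongation factors or of abundant against low genes. The elongation factor Eef2, whose longest run has 4 bases, and Eif5a also have none, though both are among the most abundant rows. Each window has 30 bases, 15 before the RefSeq start site and 15 from it on, 5′ to 3′ on the transcribed strand, and capitals mark the longest run where it has at least 7 pyrimidines.
Eef1a1: tcgccttggacgTTCTTTTTCgcaacgggt
Eef1a2: cgctcgggtacatctctgcagctgcgtcct
Eef1b2: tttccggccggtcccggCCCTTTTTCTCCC
Eef1g: TTTCTCTgcggaatcaccatggcggctggg
Eif3f: tcacgcccttccgttctagCCTCTCTCTTT
The windows are from RefSeq on GRCr8, at chr8:88225055-88225084 (minus strand) for Eef1a1, chr3:188652619-188652648 (minus) for Eef1a2, chr9:72074076-72074105 (plus) for Eef1b2, chr1:215289800-215289829 (plus) for Eef1g and chr1:172369047-172369076 (plus) for Eif3f. The run of Eef1a1 spans the annotated start, those of Eef1b2 and Eif3f begin a few bases after it and go on to the end of the window, Eef1g has it only at the upstream end of the window, and Eef1a2 has no run of at least 7. Of the 56 genes, 48 had a promoter entry. In 14 of these (29.2%) the window held such a run, against 17.9% of the 33469 rat promoter entries and 17.6% of the 21842 protein-coding ones. Median level was 30.4 FPKM for the 14 genes with a run and 17.1 FPKM for the other 34. A run is a description of these letters and does not show how a message is regulated, and a missing run says only that none lies in the window.

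Among the elongation factors, Eef1a1 stood first. Eef1a1, the widely expressed gene of eEF1A (chr8:83463590-83466813 in the deposited table, whose genome build is unstated), was at 1663, 1459 and 1564 FPKM in rats 1, 2 and 3 (1562 ± 102, SD, n = 3), which ranked 43 among all rat rows. Alone it made up 39.6% ± 1.26 (SD, n = 3) of the summed FPKM of the 56 rows. Its paralogue Eef1a2, the form of muscle and neurons, was at 0.0542, 0.284 and 0.240 FPKM, and the marker genes of those tissues summed to 1.44, 1.15 and 1.01 FPKM. All values of Eef1a2 lay far below 1 FPKM, and it was lowest in rat 1, where the marker sum was highest. That sum was mostly Tubb3 (0.942, 0.757 and 0.617 FPKM) and Tnnt3 (0.503, 0.263 and 0.330 FPKM). Acta1, Snap25 and Syt1 were listed at 0 in rat 1, and Ckm and Myh4 in all rats. A part of those tissues in the level of Eef1a2 was not tested.

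Eef2, the translocase (chr7:10017060-10022331), was at 500, 454 and 516 FPKM (490 ± 31.8, SD, n = 3), rank 134. The ratio of Eef1a1 to Eef2 was 3.33, 3.21 and 3.03, so it held within a narrow range over the rats. Eef2k encodes the kinase that inactivates eEF2, and its transcript was at 7.61, 7.24 and 11.4 FPKM (8.74 ± 2.29, SD, n = 3). Rat 3 was highest for this kinase, as for 33.5% of all rat rows whose mean reached 1 FPKM. The summed macrophage, bile duct, neutrophil and T or NK cell markers were also highest in rat 3, and their part in this was not tested. Eef2 exceeded Eef2k by 57.9 ± 11.0 times (SD, n = 3).

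The eEF1B complex, which exchanges GDP for GTP on eEF1A, was represented by 4 rows. Eef1g, its gamma subunit, was at 136, 139 and 156 FPKM (144 ± 11.0, SD, n = 3). Eef1b2, the exchange subunit, was at 74.0, 70.1 and 72.1 FPKM (72.1 ± 1.99). Eef1d, the delta subunit with exchange activity of its own, was at 24.5, 23.2 and 23.4 FPKM (23.7 ± 0.738). The 3 subunits kept their order in each rat, and their ranges did not overlap. The ratio of Eef1g to Eef1b2 ran from 1.83 to 2.17, and that of Eef1b2 to Eef1d only from 3.02 to 3.08 (3.04 ± 0.0357, SD, n = 3). Eef1e1, in spite of its name a scaffold protein of the multi-synthetase complex, was at 9.49, 10.4 and 8.75 FPKM. Together the rows named Eef, with Eef1e1 and the kinase Eef2k counted in, held 58.6% ± 1.10 (SD, n = 3) of the summed FPKM of all 56 rows.

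Eif5a, which helps ribosomes past difficult peptide bonds and carries the hypusine modification, was at 266, 255 and 277 FPKM (266 ± 10.9, SD, n = 3), rank 268. Its paralogue Eif5a2 was at 0.209, 0.146 and 0.0687 FPKM. As with Eef1a1 and Eef1a2, 1 gene of the pair was abundant and the other lay far below 1 FPKM in each rat. The enzymes that make hypusine, Dhps and Dohh, were at 10.3 ± 2.64 and 16.7 ± 0.0565 FPKM (SD, n = 3).

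Of the factors that select the start codon, Eif1 was the most abundant, at 125, 126 and 127 FPKM (126 ± 0.789, SD, n = 3; chr10:89255636-89257728). Its paralogue Eif1b was at 36.2, 36.8 and 40.5 FPKM (37.9 ± 2.34), and the ratio of Eif1 to Eif1b was 3.34 ± 0.180. Eif1a, which encodes an eIF1A that binds the ribosomal A site, was at 15.8, 10.4 and 13.5 FPKM. The X-linked eIF1A gene, deposited as Eif1ay and now called Eif1ax, was at 3.65, 3.47 and 3.89 FPKM. Both eIF1A genes were thus lowest in rat 2, and Eif1a was the more abundant in each rat. Eif1ad, which shares a domain with eIF1A, was at 7.37 ± 0.568 FPKM.

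The 3 subunits of eIF2 were not at one level. Eif2s2, the beta subunit, was at 37.7, 32.4 and 38.0 FPKM (36.1 ± 3.15, SD, n = 3). Eif2s1, the alpha subunit that stress kinases phosphorylate, was at 11.9, 12.7 and 12.1 FPKM (12.3 ± 0.416). The gamma subunit, deposited as Eif2s3x and now called Eif2s3, was at 13.2, 12.1 and 12.2 FPKM (12.5 ± 0.605). Eif2s2 exceeded Eif2s1 by 2.95 ± 0.348 times, in every rat by at least 2.55, while alpha and gamma had overlapping ranges and a ratio of 1.02 ± 0.0778. Eif2a, grouped here by name although it is a separate initiator-tRNA-binding protein and no subunit of eIF2, was at 7.27 ± 0.827 FPKM. Eif2s3y, the other copy of the gamma gene, was listed at 0 in all rats. Its row lies on chromosome 2 in the deposited tables and on Y in RefSeq, so that value may not stand for the Y gene.

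The 5 subunits of eIF2B, the exchange factor that phosphorylated eIF2 blocks, lay between means of 5.84 and 21.6 FPKM. Eif2b4, the delta subunit, was highest, at 20.7, 21.6 and 22.3 FPKM, and its range overlapped with no other subunit. Eif2b5, the catalytic epsilon subunit, was at 9.75, 11.9 and 10.2 FPKM, close to its substrate's alpha subunit (Eif2s1 to Eif2b5, 1.16 ± 0.0834, SD, n = 3). Eif2b1 (alpha) and Eif2b3 (gamma) had means of 7.82 ± 0.331 and 5.84 ± 0.920 FPKM. Eif2b2, the beta subunit, varied most between the rats among the 50 rows whose mean reached 1 FPKM, at 6.71, 11.4 and 14.6 FPKM (10.9 ± 3.95). It was lowest in rat 1, as were 48.5% of all rat rows whose mean reached 1 FPKM. The summed erythroid, macrophage, bile duct and neutrophil markers were also lowest in rat 1, and their part in this was not tested.

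All 11 eIF3 rows reached 10 FPKM in every rat, and their means spanned 3.65 times, from 23.4 to 85.5 FPKM with a median of 31.3. Eif3h, a regulatory subunit, was at 82.9, 88.8 and 84.8 FPKM (85.5 ± 3.03, SD, n = 3), and Eif3g, an RNA-binding subunit, at 88.5, 73.8 and 79.8 FPKM (80.7 ± 7.37). These 2 subunits stood apart from the other 9, whose means ended at 46.9 FPKM, with no overlap of ranges. The core subunits a, c and b, deposited as Eif3s10, Eif3c and Eif3s9, had means of 46.9 ± 0.538, 40.4 ± 1.95 and 23.4 ± 2.82 FPKM. Subunit b had the lowest mean of the complex, but its range overlapped that of Eif3e, which was the lower in rat 3. Eif3s6ip (now Eif3l), Eif3f, Eif3d, Eif3k, Eif3j and Eif3e lay between 39.1 and 24.3 FPKM. Among these, Eif3d contacts the cap of certain messages, and it was at 29.5, 28.2 and 30.7 FPKM. The subunits Eif3i and Eif3m were not analysed here.

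Within the cap-binding machinery, transcripts of the main helicase and the main scaffold exceeded that of the cap-binding protein. Eif4e was at 11.0, 10.9 and 11.4 FPKM (11.1 ± 0.233, SD, n = 3; chr2:236072747-236104714). Eif4g1, the main scaffold, was at 81.8, 78.6 and 87.7 FPKM (82.7 ± 4.62), and Eif4a1, the main helicase, at 116, 99.6 and 115 FPKM (110 ± 9.18). In each rat Eif4e lay below both, with ratios of 7.44 ± 0.265 for Eif4g1 and 9.92 ± 0.742 for Eif4a1. Eif4e2, a cap-binding relative that in hypoxia takes part in an alternative cap-binding complex, was at 9.99, 10.4 and 13.0 FPKM, and its ratio to Eif4e was 0.908, 0.951 and 1.14. Its range overlapped that of Eif4e. Eif4e3 was at 0.717, 0.862 and 0.704 FPKM, and Eif4e1b, a form of oocytes, was listed at 0 in each.

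The scaffold paralogue Eif4g2, which cannot bind eIF4E, was at 59.8, 53.1 and 53.4 FPKM. Eif4g3 was the lowest scaffold gene, at 9.23, 9.62 and 9.30 FPKM, and lay below Eif4e in each rat. Eif4g1 exceeded Eif4g3 by 8.82 ± 0.627 times (SD, n = 3), and the 3 scaffold genes did not overlap. Eif4a2, the second helicase, was at 42.7, 59.3 and 39.6 FPKM (47.2 ± 10.6). The helicase cofactor Eif4b was at 47.1, 59.0 and 43.8 FPKM (50.0 ± 7.98). Both were highest in rat 2, where Eif4a1 was lowest, so the ratio of Eif4a1 to Eif4a2 was 2.72, 1.68 and 2.90 in the 3 rats. The related cofactor Eif4h was at 48.4, 44.9 and 51.9 FPKM, lowest in rat 2.

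The eIF4E-binding protein genes Eif4ebp1 and Eif4ebp2 were abundant beside their target. Eif4ebp1 was at 32.0, 31.3 and 32.3 FPKM (31.9 ± 0.550, SD, n = 3; chr16:69110521-69123895). Eif4ebp2 was at 73.1, 67.1 and 55.7 FPKM (65.3 ± 8.83; chr20:29562633-29579209). Each lay above Eif4e in every rat, and Eif4ebp2 above Eif4ebp1, with a ratio of 2.29, 2.15 and 1.72. Eif4ebp1 was at 2.87 ± 0.0328 times Eif4e (SD, n = 3), a ratio that ran only from 2.84 to 2.91 over the rats, whereas that of Eif4ebp2 to Eif4e ran from 4.90 to 6.65. The sum of both binding proteins was 9.55, 8.99 and 7.75 times Eif4e. Eif4enif1, the eIF4E transporter that also binds eIF4E and represses bound messages, was at 5.38 ± 0.493 FPKM, below Eif4e in each rat. Eif4ebp3 was not analysed here. RefSeq lists 10 pseudogenes for Eif4e and 0 for Eif4ebp1 and Eif4ebp2, so the level of Eif4e, and each ratio to it, is uncertain. Transcript ratios do not give the ratio of the proteins.

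**Figure D2:**
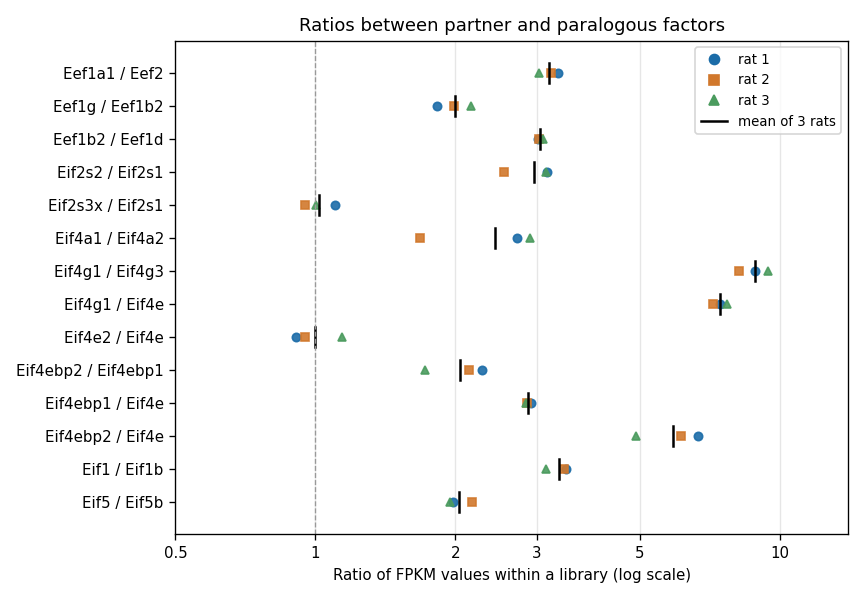
Ratio of FPKM values of partner or paralogous factors within each rat library (log axis). Points are single rats, the black bar is their mean, and the dashed line marks equal levels. The ratios of Eif4ebp1 to Eif4e and of Eef1b2 to Eef1d spread least over the rats, and that of Eif4a1 to Eif4a2 is lower in rat 2 (1.68) than in the others.

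Eif5, which makes eIF2 hydrolyse its GTP at the start codon, was at 40.9, 45.5 and 42.1 FPKM (42.8 ± 2.43, SD, n = 3). Eif5b, which joins the ribosomal subunits, was at 20.6, 21.0 and 21.6 FPKM (21.0 ± 0.476). Eif5 was above Eif5b in each rat, and was at 3.49 ± 0.0788 times Eif2s1, a narrow range over the rats. Of the Argonautes, Eif2c1 (Ago1) was at 1.19, 1.90 and 1.73 FPKM, Eif2c4 (Ago4) at 0.827, 1.44 and 1.07, and Eif2c2 (Ago2) at 1.2, 0.976 and 1.06. The fourth, Eif2c3 (Ago3), was at 0.648, 0.548 and 0.424 FPKM, so all Argonautes lay below 2 FPKM.

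The 6 highest rows (Eef1a1, Eef2, Eif5a, Eef1g, Eif1 and Eif4a1) held 68.5% ± 1.09 (SD, n = 3) of the summed FPKM of all 56. For each of them the range over the rats was separate from that of the next lower gene, down to Eif3h, the seventh. Further down, most neighbours in the order overlapped, and only 16 of all 55 neighbouring pairs had separate ranges. All 56 rows together made up 0.743% ± 0.0251 (SD, n = 3) of the summed FPKM of all rat rows but albumin, whose value is missing in rats 1 and 2.

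Translation factor levels varied little between the rats. For the 50 rows whose mean reached 1 FPKM, the highest rat exceeded the lowest by a median ratio of 1.14, against 1.24 over all such rat rows. In 35 (70%) the ratio was under 1.2, against 39.9% of all rows, and in 5 (10%) it was at least 1.5, against 18.9%. Without the Argonautes, 3 of 47 (6.38%) reached 1.5. With rows of at least 10 FPKM alone, the medians were 1.12 and 1.21. The 5 most variable of the 50 were Eif2b2 (2.17), Eif2c4 (1.74), Eif2c1 (1.59), Eef2k (1.57) and Eif1a (1.52). At the other end, Eif1 was at nearly the same level in each rat as deposited. On the scale of the species comparison it was at 126, 108 and 119. These are descriptions without a test, since 3 rats of 1 group give no contrast.

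**Figure D3:**
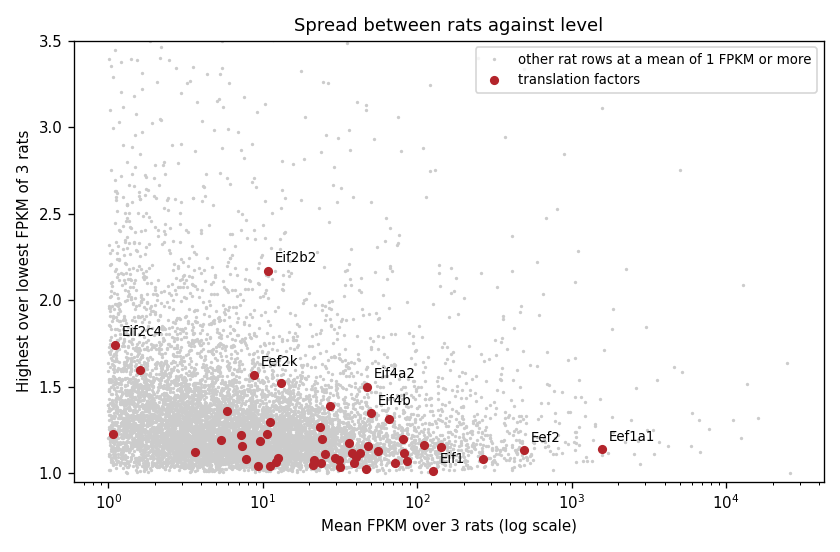
Highest over lowest FPKM of the 3 rats against the mean FPKM (log axis), for the 50 translation factor rows at a mean of at least 1 FPKM (red) and all other such rat rows (grey). The vertical axis ends at 3.5, and 130 other rows lie above it. Most translation factors lie under 1.2, and Eif2b2 at 2.17 is the only one above 2.

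The rows also tended to be lowest in the same rat. The summed FPKM of the 56 rows was 4051, 3769 and 4000 in rats 1, 2 and 3. With rat libraries brought to a common scale (median ratio across all rows), 34 of the 50 rows (68%) were lowest in rat 2, against 33.5% of all rows. As deposited, 24 of 50 (48%) were lowest there, against 22.6%. Without the Argonautes, 33 of 47 (70.2%) were lowest in rat 2 after scaling. The scaling was chosen after these values were seen. Of 4 stellate cell or fibroblast marker genes, Col1a1 and Col3a1 were also lowest in rat 2 as deposited, whereas Des and Lrat were lowest in rat 1. Des (1.78, 1.81 and 3.27 FPKM) and Lrat (0.492, 0.526 and 0.549 FPKM) differed little between rats 1 and 2. The common scale divides rat 1 by 0.957 and rat 2 by 1.04, and on it both were lowest in rat 2. As deposited, the summed level of the 4 genes was 25.2, 16.6 and 23.5 FPKM, most of it Col3a1 (21.0, 13.6 and 18.3 FPKM). Lowest in rat 2 too were the hepatocyte genes Tat (1023, 429 and 1221 FPKM) and G6pc (540, 249 and 437 FPKM). The hepatocyte genes Ttr and Tf were highest in rat 2. The part of these marker genes in the shift was not tested. The 9 rows highest in rat 2 on that scale were Eif2a, Eif2b5, Eif3e, Eif4b, Eif4a2, Eif5, Eef1e1, Eif2c1 and Eif2c4.

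Other genes of translation control were listed by role, with 58 of 68 having a rat row, of which 54 reached 1 FPKM and 27 reached 10 FPKM (median 8.60). Of the kinases that phosphorylate eIF2, the haem-regulated Eif2ak1 was highest, at 19.8, 24.6 and 20.4 FPKM (21.6 ± 2.60, SD, n = 3). The kinase of the endoplasmic reticulum, Eif2ak3 (PERK), was at 3.75, 2.95 and 4.01 FPKM, and Eif2ak4 (GCN2), which senses amino acid shortage, at 0.618, 0.517 and 1.22 FPKM. Eif2ak2 (PKR) was listed at 0, but its row lies off the assembled chromosomes, and 0 of the 831 rows there exceeded 0, so this value says nothing about the gene.

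Atf4, a transcription factor translated when eIF2 is phosphorylated, was at 80.5, 70.1 and 84.9 FPKM (78.5 ± 7.62, SD, n = 3). Its target Ddit3 was at 14.3, 25.7 and 22.9 FPKM, and Ppp1r15a, which brings the phosphatase back to eIF2, at 5.84, 4.19 and 6.09 FPKM. Atf4 and Ppp1r15a were lowest in rat 2, whereas Ddit3 was highest there. Mtor, the kinase that inactivates the 4E-BPs, was at 5.62, 6.34 and 5.08 FPKM. Ddit4, an inhibitor of mTOR signalling known to respond to hypoxia, was at 5.04, 2.47 and 5.21 FPKM, again lowest in rat 2. Pabpc1, the poly(A)-binding protein that contacts eIF4G, was at 78.3, 75.8 and 77.2 FPKM, in each rat a little below Eif4g1. Tufm, the mitochondrial counterpart of eEF1A, was at 51.9 ± 5.04 FPKM, and the 6 mitochondrial factors with a rat row had a median of 4.20 FPKM.

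The naked mole rat tables held few translation factors, and most of their rows do not match the extent of the rat gene. EIF6, which keeps the large ribosomal subunit from joining too early, was at 31.9, 34.5 and 25.7 FPKM (30.7 ± 4.54, SD, n = 3) in naked mole rats 1, 2 and 3. Its row (scaffold26511:480-1690) ranked 45 of 734, and the rat counterpart was not analysed here. EEF1A1P9, named for a human pseudogene of EEF1A1, was at 2.06, 1.66 and 1.74 FPKM. That row spans 624767 bp (scaffold108:99488-724255) and overlaps KAT2B, against 3223 bp for rat Eef1a1, so it was compared with no rat gene.

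EIF1 had a row of 327 bp (scaffold702:741-1068; rat 2092 bp), at 0.671 FPKM in naked mole rat 1 and listed at 0 in the others. EIF2S2, on 229842 bp (scaffold52:66347-296189; rat 20726 bp), was listed at 0 in naked mole rats 1 and 2 and was at 0.0432 FPKM in naked mole rat 3. EIF5 had a row of 1127 bp (scaffold734:36171-37298; rat 7206 bp) at 1.10, 1.32 and 0.707 FPKM. A second EIF5 row, of 1224 bp (scaffold56:31654-32878), was listed at 0 in each. EIF2S3, on 510952 bp (scaffold17235:251401-762353; rat Eif2s3x 23407 bp), was at 0.106, 0.121 and 0.0756 FPKM. All of these were thus near or under 1 FPKM where the rat genes were at 12 FPKM or more.

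**Figure D4:**
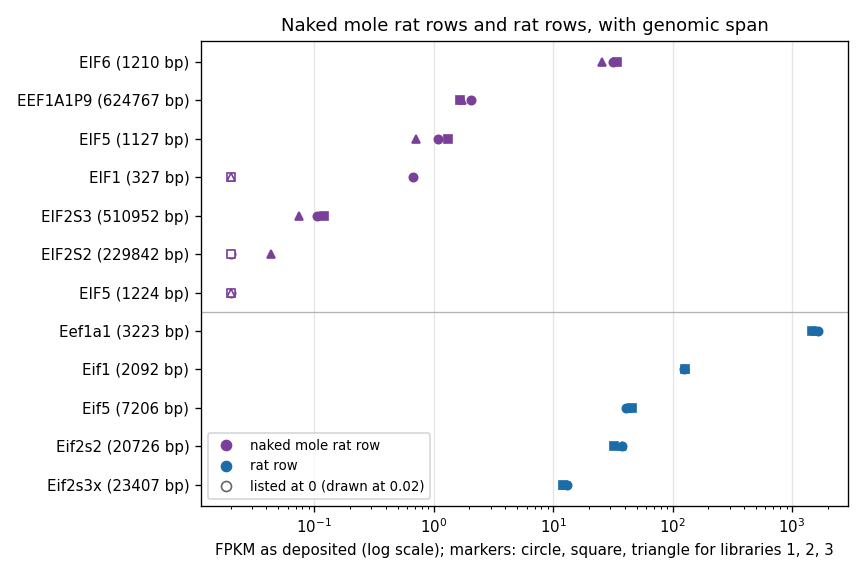
FPKM as deposited (log axis) of the 7 naked mole rat translation factor rows and of 5 rat rows for comparison, with each row's genomic span in brackets. Circles, squares and triangles are libraries 1, 2 and 3, and open symbols mark values listed at 0. EIF6 is the only naked mole rat row above 10 FPKM.

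Between the species, limma was fitted on log2(scaled FPKM + 1) over the 288 shared symbols that reached a scaled FPKM of 1 in 3 libraries or more, and a symbol was called at a Benjamini-Hochberg adjusted p under 0.05 with a log2 difference of at least 1. EIF1, EIF2S2 and EIF5 were tested, and 3 of 3 were called higher in rat, where 41.0% of all tested symbols were called higher in rat and 32.6% higher in naked mole rat. In scaled FPKM, EIF5 was at 41.1, 39.1 and 39.3 in the rats and at 1.12, 1.48 and 0.741 in the naked mole rats, which do not overlap, as in 50.0% of all tested symbols with rat higher. Its log2 difference, naked mole rat minus rat, was -4.28 (SE 0.141, limma adjusted p = 5.84e-08). For EIF1 it was -6.64 (SE 0.215, limma adjusted p = 5.46e-08) and for EIF2S2 -5.09 (SE 0.130, limma adjusted p = 1.70e-08). Both of these passed the filter through the rat libraries alone and so had to differ, and their size depends on the pseudocount, with log2 differences of -9.20 for EIF1 and -8.21 for EIF2S2 at a pseudocount of 0.1.

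These differences were measured between rows of unequal extent. No translation factor had a naked mole rat row of 0.5 to 2 times the rat span. Among tested symbols with a shorter naked mole rat row, such as EIF1, 40 of 55 (72.7%) were called higher in rat, against 61 of 176 (34.7%) with a longer row, such as EIF2S2, and 11 of 47 (23.4%) with a comparable one. Of the 10 symbols with several rows, EIF5 among them, 6 (60%) were called higher in rat. A difference between species in the transcript and a difference in how its row was drawn cannot be told apart. Of the related genes, EEFSEC, the elongation factor for selenocysteine, had rows of comparable span and was at 58.5, 66.3 and 47.1 FPKM in naked mole rats against 6.27, 8.72 and 9.31 FPKM in rats. It was called higher in naked mole rat, as were 16 of the 47 tested symbols of comparable span, EEFSEC among them. Its log2 difference was 2.87 (limma adjusted p = 2.18e-06). DHPS, whose naked mole rat row spans 2480459 bp against 4091 bp in rat, differed by 0.61 (limma adjusted p = 0.0115), short of the fold threshold.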

How the data were processed

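Polyadenylated liver RNA of 3 rat and 3 naked mole rat libraries was measured. The deposited values are FPKM, in gene tables of the Cufflinks form per the file headers. Tools named in the submitters' processing notes are Cufflinks 2.1.1, TopHat2 2.0.9, Picard 1.137 and Bowtie2 2.1.0. Genome builds: not given in the sources used here. Rows were joined across libraries by symbol and locus. Members and lists were chosen with earlier results of these data known. Every member may be named. Per complex the highest and lowest, all of small complexes, the eIF4E-binding proteins, Eef2k, members with a naked mole rat row, the 10 of highest level and the 5 most variable were to be described.

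For the species comparison, symbols were matched without regard to case, rows of a symbol were summed, and each library was divided by its median ratio to the geometric mean across shared symbols (388 shared, 288 tested). limma 3.58.1 in R 4.3.3 was run with a pseudocount of 1 and an intensity trend, and was checked on simulated data. Rat levels were used as deposited. The ratio pairs, the pyrimidine run of at least 7 bases, taken after a shorter motif had been looked at, and the count of the lowest rat after scaling were chosen after the data were seen. RefSeq (GRCr8) gave current names for all 56 rat rows and the start-site windows, of which not all are reported here. Replicate numbers did not pair the libraries of the species, whose deviations correlated at -0.0355, -0.0864 and -0.0435.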

Additional observations from a re-analysis of the deposited data

Results flagged for a closer look

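In data outside the comparison between species, 2 naked mole rat rows without a rat partner carried a signal. EIF6 had a mean of 30.7 FPKM and EEF1A1P9 a mean of 1.82 FPKM over the 3 naked mole rat libraries. With no control samples and no counts, these levels were set against 0 only. Groups of 3 are too small for a check of single libraries that stand apart.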

How the results depend on the processing

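The calls of EIF1, EIF2S2 and EIF5 were recomputed under 4 scalings, another pseudocount, filters, row choice, trend and fold threshold. Each of these called 3 of 3 higher in rat and 0 higher in naked mole rat. In the main fit, 41.0% of all tested symbols were called higher in rat. With the main filter, EIF1 and EIF2S2 passed through the rat libraries alone and so had to differ. With a filter at a scaled FPKM of 5, the same held for EIF5. Leaving out 1 library with the filter at 3 libraries gave 1 to 3 called, since without any 1 rat only EIF5 could be tested, and EIF1 and EIF2S2 had no value. A filter at 2 libraries, added after this was seen, gave 3 called in each case, with EIF1 and EIF2S2 again passing through the rat libraries alone. Over the settings that leave out no library, the log2 difference ran from -10.69 to -6.29 for EIF1, from -10.21 to -4.74 for EIF2S2 and from -5.08 to -3.77 for EIF5. The lowest values came from scaling each library to a common total for EIF1 and EIF2S2, and from a pseudocount of 0.1 for EIF5.

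With the replicate number as a block, 3 of 3 were called. No fit on comparable spans gave a value, since 0 members had one. Current RefSeq symbols for rat, an alternative added later, brought in EIF2S3, and 4 of 4 were called higher in rat, where 43.0% of the 284 symbols of that fit were. EIF2S3 (log2 difference -3.50, limma adjusted p = 4.02e-08) passed the filter through the rat libraries alone and so had to differ.

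The median ratio of highest to lowest rat, 1.14, was 1.16 on scaled values, 1.12 at a mean of at least 10 FPKM, 1.13 without the Argonautes and 1.07 to 1.10 without 1 rat, as 2 libraries spread less than 3. Without the Argonautes, a set left out after the values were seen, the median log2(FPKM + 1) was 4.69 in place of 4.61. Of 70 medians per complex, 67 moved by less than the SD between rats. Most of these had little room to move. Leaving out rows off the assembled chromosomes could change nothing, since all 56 rows lie on them. Leaving out 1 of 3 rats shifts a mean only by part of that SD.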
